A study of Mus musculus with 30 samples.

Results

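The 7 genes described here encode transcription factors of the early skeleton: the *Sox* trio *Sox9*, *Sox5* and *Sox6*, together with *Nkx3-2*, *Runx2*, *Runx3* and *Foxc1*. They were chosen by symbol. All 7 were found in the deposited FPKM table and were joined by Ensembl identifier to the count table, so that they make up 7 of the 50833 genes counted.

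SOX9 is the HMG-box factor without which mesenchymal cells do not become chondrocytes, and SOX5 and SOX6 are related factors that lack an activation domain of their own and help SOX9 to act on cartilage matrix genes. NKX3-2 is a homeodomain factor of early cartilage that represses transcription, and RUNX2 drives osteoblasts and the maturation of chondrocytes. RUNX3 shares the latter role and also acts in sensory neurons and lymphocytes, and FOXC1 is a forkhead factor of skeletal and vascular mesenchyme. In the limb bud, canonical WNT signaling through β-catenin is known to hold back chondrogenic differentiation.

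RNA was taken from forelimb buds of wild-type Swiss Albino mouse embryos whose mothers had been injected intraperitoneally at E10.5 either with DMSO, the solvent, or with C59 (Wnt-C59), a porcupine inhibitor that blocks the secretion of WNT ligands. Buds were collected 1, 6, 12, 18 or 24 h later, which gave 10 groups of 3 libraries and 30 libraries in all, each made from the polyA RNA of a single pair of buds. The C59 vehicle also held methylcellulose and a detergent, whereas control females received DMSO in saline buffer. The comparison of C59 with DMSO at each time point asks how loss and return of WNT secretion change these genes, and the comparisons within DMSO give the course of normal development.

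Library totals ran from 18188636 to 38974885 counts. Levels are given as CPM (counts scaled to library size) after TMM scaling over all 30 libraries, and log2 fold changes with their SE and adjusted p come from edgeR's quasi-likelihood test of the libraries compared. A gene passed the test at an adjusted p below 0.05 and was called when its log2 fold change was also beyond 1. *Axin2*, a direct WNT target used as the check of the treatment, fell by 1.97 ± 0.06 (SE, n = 3 per group) on the log2 scale at 6 h and by 1.45 ± 0.06 at 12 h, and did not pass the test at 18 h (-0.16) or 24 h (-0.08). Replicates varied most at 18 h, where the biological coefficient of variation was 12.5%, against 5.41% to 7.52% at the other time points. By a chi-square of counts between replicates, the first DMSO libraries at 1 h, 6 h and 18 h, the third C59 library at 18 h and the second at 24 h stood apart from the rest of their groups (20.8 to 42.2 per degree of freedom in pairs with them, 3.31 to 11.7 in all other pairs). Values without these libraries are given where they change a result. The forelimb gene *Tbx5* averaged 256 CPM in DMSO and 296 CPM in C59 libraries at 12 h, against a summed 13.1 to 23.7 CPM of the hindlimb genes *Pitx1* and *Tbx4*. At 6 h, Y-linked genes were listed at 0 in all 3 DMSO libraries and summed to 19.8 to 33.2 FPKM in all 3 C59 libraries, so that embryo sex and treatment cannot be told apart at that time point. Embryo sex was therefore also unequal in the comparisons of 12 h with 6 h. At 12 h, 1 of 3 libraries in each group had a Y-linked sum above 1 FPKM. The groups were less balanced at the other times. At 1 h the sums were 7.66, 9.03 and 0.0469 FPKM in DMSO and 37.0, 38.2 and 21.2 FPKM in C59 libraries. At 18 h they were 0.094, 21.0 and 0.0195 against 0.0682, 19.7 and 24.2 FPKM, and at 24 h 20.1, 0.0147 and 19.6 against 20.1, 25.0 and 19.3 FPKM.

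The genes lie on 7 different autosomes of the mm10 assembly. *Sox9* (ENSMUSG00000000567) occupies chr11:112782224-112787760 on the plus strand, *Runx3* (ENSMUSG00000070691) chr4:135120652-135177990 and *Foxc1* (ENSMUSG00000050295) chr13:31806633-31812476, both also on the plus strand. On the minus strand lie *Sox5* (ENSMUSG00000041540) at chr6:143828425-144209568, *Sox6* (ENSMUSG00000051910) at chr7:115470872-116038744, *Nkx3-2* (ENSMUSG00000049691) at chr5:41761483-41764501 and *Runx2* (ENSMUSG00000039153) at chr17:44496486-44814797. Antisense genes share exon bases with *Sox5* (*Sox5os1*, 1330 bases) and with *Runx2* (*Runx2os1*, 519 bases), and since the strand of counting was not stated, reads there cannot be assigned with certainty. Neither antisense gene had more than 7 counts in any library.

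The promoter sequences printed here belong to 3 members that rose together at 12 h after C59. RefSeq windows (GRCm38.p6, 250 bases before to 50 bases after an annotated start) were given for 6 of the 7 genes, 12 windows in all. They were searched on both strands for CTTTGA (TCF/LEF, the nuclear partners of β-catenin), ACAAAG (SOX), TGTGGT (RUNX), GTAAACA (FOX) and TAAGTG (NKX3-2). Each sequence reads 5′ to 3′ on the strand of its gene from position -250, ends before the first annotated exon base or the start, and has every match in capitals.
*Sox5*, chr6:143947107-143947356, minus strand, with TAAGTG at -27: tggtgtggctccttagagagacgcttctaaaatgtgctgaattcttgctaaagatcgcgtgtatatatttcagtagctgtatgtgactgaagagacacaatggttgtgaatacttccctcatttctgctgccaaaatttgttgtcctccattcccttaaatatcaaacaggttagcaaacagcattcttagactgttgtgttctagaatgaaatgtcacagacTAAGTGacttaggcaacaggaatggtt
*Sox6*, chr7:115846152-115846390, minus strand, with TCAAAG at -207, TAAGTG at -147, TGTGGT at -63 and ACAAAG at -44: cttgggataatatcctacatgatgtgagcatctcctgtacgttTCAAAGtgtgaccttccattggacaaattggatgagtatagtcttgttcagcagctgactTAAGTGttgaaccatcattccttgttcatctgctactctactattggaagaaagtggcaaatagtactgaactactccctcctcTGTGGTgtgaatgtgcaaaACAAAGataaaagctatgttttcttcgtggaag
*Foxc1*, chr13:31806396-31806632, plus strand, with TGTGGT at -188: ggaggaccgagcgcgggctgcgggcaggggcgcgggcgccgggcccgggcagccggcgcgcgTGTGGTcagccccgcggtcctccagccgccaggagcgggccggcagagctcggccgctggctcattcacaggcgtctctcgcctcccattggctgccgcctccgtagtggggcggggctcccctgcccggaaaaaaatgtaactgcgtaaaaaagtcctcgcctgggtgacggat
The *Sox6* window is 1 of 6 given for that gene and the one with the most motifs, 4 of the 5. The other *Sox6* windows held 1 or 2 motifs each. The printed *Sox6* and *Sox5* windows lie within the gene spans given above, not at their 5′ ends. The window at the 5′ end of *Sox6* (chr7:116038695-116038994) held 2 motifs. The *Foxc1* window is rich in CpG (32 in 300 bases, GC 67.3%), whereas the *Sox5* window held 3 CpG at a GC content of 39.7%. Over all 32851 windows of the same length, TCF/LEF letters occurred in 16.0%, SOX letters in 18.7%, RUNX letters in 16.8%, FOX letters in 3.65% and NKX3-2 letters in 9.2%. Among the 12 windows of the members, TCF/LEF letters occurred in 4, SOX letters in 5 (all of *Sox6*), RUNX letters in 5 and NKX3-2 letters in 3, and FOX letters in none. A TCF/LEF match and a SOX match on the other strand (CTTTGT) differ in their last base and cannot be the same letters, and in 1 *Sox6* window a SOX match and a RUNX match shared bases. These matches describe the letters only.

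**Figure D1:**
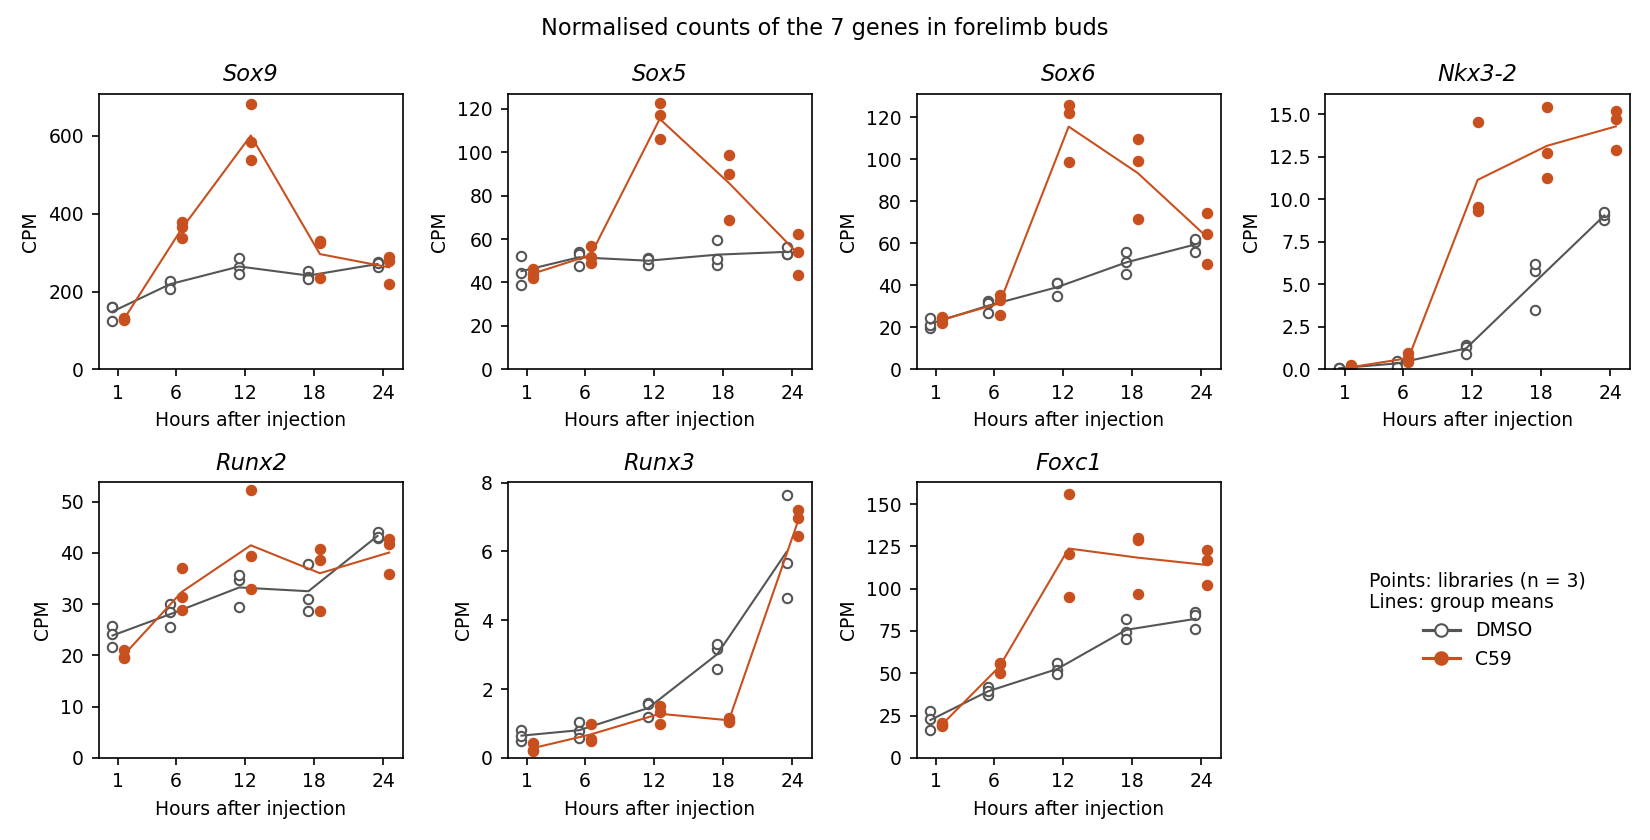
CPM of the 7 genes in each of the 30 libraries against hours after injection, with open grey points for DMSO, filled orange points for C59 and lines through the group means (n = 3). The C59 libraries at 12 h lie above all DMSO libraries of that time point for *Sox9*, *Sox5*, *Sox6*, *Nkx3-2* and *Foxc1*, and the C59 libraries at 18 h lie below those of DMSO for *Runx3*.

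Normal development came first. Between 1 h and 24 h after DMSO, all 7 genes passed the test as higher and 4 were called (*Nkx3-2*, *Runx3*, *Foxc1* and *Sox6*), where 30.2% of the 13580 genes tested passed as higher and 10.6% were called higher. The members' median log2 fold change was 1.45, against -0.002 over all genes tested. *Nkx3-2* went from 0, 2 and 3 counts at 1 h to 171, 233 and 233 counts at 24 h (8.80 to 9.23 CPM), a fitted log2 change of 6.90 ± 0.31 (SE, n = 3 per group, adjusted p = 1.91e-10) that rests on only 5 counts at 1 h. It met the count filter only through its 24 h libraries, so its direction was fixed in advance and it adds no support to these counts of members. *Runx3* rose from 0.490 to 0.804 CPM to 4.65 to 7.65 CPM (3.20 ± 0.26, adjusted p = 1.15e-07).

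The *Sox* trio did not move as 1 block in control buds. *Sox6* rose 2.73-fold from 1 h to 24 h (log2 1.45 ± 0.08, adjusted p = 1.66e-09), *Sox9* 1.82-fold (0.87 ± 0.07) and *Sox5* 1.19-fold (0.26 ± 0.08, adjusted p = 0.0167). The small *Sox5* change no longer passed when the first or second library at 1 h or the third at 24 h was left out (adjusted p 0.0731, 0.0526 and 0.0738). *Sox9* stood at 245 to 285 CPM at 12 h and at 262 to 275 CPM at 24 h, a change of 0.03 ± 0.05 that did not pass, while *Sox6* went on rising (0.60 ± 0.07, adjusted p = 2.99e-05). *Runx2* rose by 0.38 ± 0.07 and *Foxc1* by 0.64 ± 0.06 in the same interval. Of the 7 genes, 5 passed the test from 12 h to 24 h and 2 were called (*Nkx3-2* 2.87 ± 0.18, *Runx3* 2.04 ± 0.24), against 21.2% and 5.67% of all genes as higher. From 6 h to 12 h, 3 passed (*Sox9*, *Sox6* and *Foxc1*, 0.27 to 0.42) and none was called, against 2.13% of all genes that passed as higher and 0.468% called. With single libraries left out, *Sox9* and *Sox6* passed in 2 of 6 cases each and *Foxc1* in 4 of 6 (highest adjusted p 0.147, 0.183 and 0.0558). Without the first library at 6 h, the values were 0.0738 for *Sox9* and 0.153 for *Sox6*. *Nkx3-2* did not pass there (1.76 ± 0.43, adjusted p = 0.0542).

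**Figure D2:**
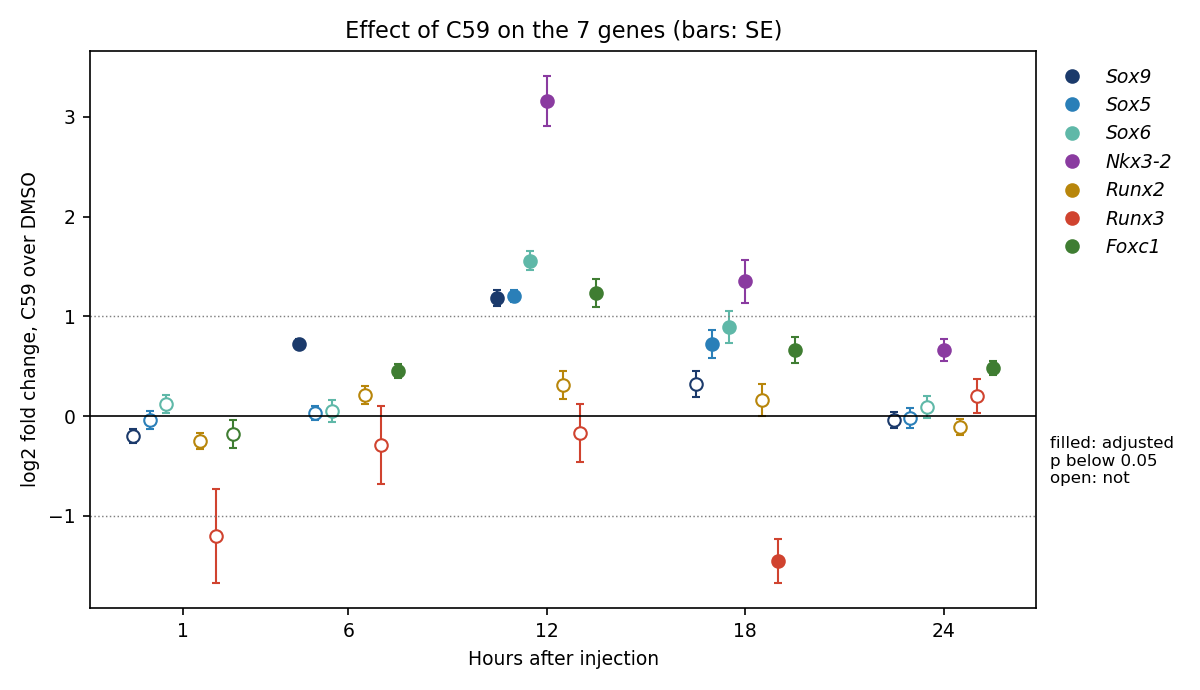
Log2 fold change of C59 over DMSO for each gene at 1, 6, 12, 18 and 24 h, with SE bars (n = 3 per group) and filled points where the adjusted p was below 0.05. *Nkx3-2* is missing at 1 h and 6 h because it was below the count filter; *Sox9* and *Foxc1* are the filled points at 6 h, 5 genes are filled at 12 h between 1.18 and 3.16, and *Runx3* is the filled point below 0 at 18 h.

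At 1 h after C59, none of the 6 members tested passed, where 2.75% of 13076 genes passed and 0.283% were called. *Nkx3-2* had 1 to 6 counts per C59 library and fell below the filter. *Runx3* was at 0.206 to 0.421 CPM in C59 and 0.490 to 0.804 CPM in DMSO libraries, without overlap, but on 4 to 18 counts per library, and the difference missed the threshold (-1.20 ± 0.47, adjusted p = 0.204). *Sox9* overlapped between the groups (-0.20 ± 0.07, adjusted p = 0.186) and passed as lower without the first DMSO library (-0.31, adjusted p = 0.00229). *Runx2* did not overlap between the groups (-0.25 ± 0.08, adjusted p = 0.133), as was the case for 22% of all genes.

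*Sox9* was higher from 6 h. The DMSO libraries had 224, 226 and 207 CPM and the C59 libraries 379, 338 and 367 CPM. The groups did not overlap, and the difference of 0.72 ± 0.05 (1.64-fold, SE, n = 3 per group) passed the test (adjusted p = 1.00e-06) without reaching the fold needed for a call. *Foxc1* was the other gene that passed, with 41.7, 37.0 and 39.3 CPM in DMSO against 56.3, 55.7 and 49.9 CPM in C59 libraries (0.45 ± 0.07, adjusted p = 0.0004). For 6 h, 19.6% of all genes passed and 1.17% were called, and 36.8% did not overlap between the groups. Both genes passed with each library left out. In whole buds, more cells of a type and more RNA per cell cannot be told apart.

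*Sox5* and *Sox6*, the partners of SOX9, had not followed at 6 h. *Sox5* was at 47.8 to 53.9 CPM in DMSO and 49.1 to 56.8 CPM in C59 libraries (0.03 ± 0.07, 95% interval -0.11 to 0.16), and *Sox6* at 26.7 to 32.6 and 25.9 to 35.2 CPM (0.05 ± 0.11, interval -0.15 to 0.26). Both pairs of groups overlapped. *Runx2* (0.21 ± 0.09, adjusted p = 0.136) and *Runx3* (-0.29 ± 0.39) did not pass. *Nkx3-2* had 2 to 11 counts per DMSO library and 9 to 19 per C59 library, and was not tested.

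At 12 h, 5 of the 7 genes were called, all higher, where 4.95% of 13324 genes were called in either direction, 3.53% as higher, and 47.5% passed. The median over the 7 members was 1.20 on the log2 scale and 0.017 over all genes. The same 5 genes did not overlap between the groups, as was the case for 57.1% of all genes.

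*Sox9* had 263, 285 and 245 CPM in DMSO and 681, 584 and 538 CPM in C59 libraries, so that the lowest C59 library stood well above the highest DMSO library. The difference was 2.27-fold (1.18 ± 0.08, adjusted p = 1.89e-06). *Sox5* had 51.3, 48.0 and 50.7 CPM against 123, 117 and 106 CPM. Its 2.30-fold difference (1.20 ± 0.06, adjusted p = 5.63e-07) was close in size to that of *Sox9*. *Sox6* had 41.2, 41.1 and 35.0 CPM against 126, 122 and 98.5 CPM, and rose 2.95-fold (1.56 ± 0.10, adjusted p = 1.28e-06), the most of the trio in fitted fold change.

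*Nkx3-2*, the homeodomain factor of early cartilage, rose most of the 7 genes. It had 29, 24 and 16 counts in DMSO libraries (1.45, 1.34 and 0.905 CPM) and 175, 222 and 316 counts in C59 libraries (9.53, 9.33 and 14.5 CPM). Each C59 library held several times the level of any DMSO library, and the difference was 8.97-fold (3.16 ± 0.25, adjusted p = 4.09e-06). *Foxc1*, the forkhead factor, had 56.1, 52.2 and 49.3 CPM against 156, 120 and 94.9 CPM (1.23 ± 0.14, adjusted p = 6.34e-05). Its C59 libraries were spread more widely than those of the *Sox* trio.

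The 2 *Runx* genes stood apart from the others at 12 h. *Runx2*, the factor of osteoblasts and maturing chondrocytes, had 34.7, 35.6 and 29.4 CPM in DMSO and 52.2, 39.3 and 32.9 CPM in C59 libraries. The groups overlapped and the difference did not pass (0.31 ± 0.14, adjusted p = 0.0941). It passed with DESeq2 (0.32, adjusted p = 0.0474), with upper-quartile factors (0.40, adjusted p = 0.0462) and without the third C59 library (0.47 ± 0.12, adjusted p = 0.011). With the replicate number as a block in the edgeR fit it passed too (0.30 ± 0.09, adjusted p = 0.0222). *Runx3* had 21 to 32 counts in DMSO and 18 to 33 in C59 libraries, with overlap (-0.17 ± 0.29, interval -0.73 to 0.39).

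Markers of other cell types moved in the same direction at 12 h, and their part in these results was not tested. Of the Schwann cell precursor and crest markers, *Sox10* averaged 8.20 CPM in DMSO and 13.8 CPM in C59 libraries, *Erbb3* 33.1 and 77.6 CPM, and *Foxd3* 1.70 and 3.28 CPM. The ranges of summed CPM in DMSO and C59 libraries were 71.7 to 98.1 and 106 to 137 for 5 muscle progenitor markers, 306 to 334 and 388 to 428 for 6 endothelial markers, 18.2 to 21.6 and 33.8 to 35.7 for 5 macrophage markers, and 239 to 267 and 334 to 458 for 6 markers of surface ectoderm. Within the muscle list *Myog* rose on average from 23.6 to 69.7 CPM while *Pax3* was at 13.8 CPM in DMSO and 3.36 CPM in C59. The sum of 6 limb mesenchyme markers was 1960 to 2020 CPM in DMSO and 1800 to 1970 CPM in C59 libraries, but its genes moved both ways. The means in DMSO and C59 were lower in C59 for *Prrx1* (745 and 552 CPM), *Prrx2* (145 and 67.1), *Lhx9* (188 and 121) and *Hand2* (145 and 121). They were higher for *Pdgfra* (505 and 745 CPM) and *Tbx5* (256 and 296 CPM). Sums for 7 erythroid genes overlapped (5230 to 7580 against 6590 to 9420 CPM).

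The C59 effect itself grew between 6 h and 12 h in 5 of the 7 genes by the test of the interaction, which 6.59% of 13565 genes passed in that direction. It grew by 0.47 ± 0.11 for *Sox9* (adjusted p = 0.00606), by 1.18 ± 0.10 for *Sox5*, by 1.51 ± 0.16 for *Sox6*, by 0.78 ± 0.18 for *Foxc1* and by 2.33 ± 0.60 for *Nkx3-2* (adjusted p = 0.0127). The *Nkx3-2* value depends on few counts at 6 h, and missed the threshold without the first DMSO library at 6 h (2.08, adjusted p = 0.0754) or without the second (2.14, adjusted p = 0.0527). For *Runx2* (0.10 ± 0.19) and *Runx3* (0.12 ± 0.47) the interaction did not pass.

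Within the C59 groups alone, all 7 genes passed as higher from 6 h to 12 h and 4 were called, against 22.3% and 4.72% of 13389 genes. *Nkx3-2* rose 17.1-fold (4.09 ± 0.28), *Sox6* 3.72-fold, *Foxc1* 2.31-fold and *Sox5* 2.21-fold, while *Sox9*, already high at 6 h, rose 1.68-fold (0.75 ± 0.07) and was not called. Here too *Nkx3-2* met the count filter only through its later libraries, so its direction was fixed in advance. *Runx2* (0.37 ± 0.14, adjusted p = 0.0467) and *Runx3* (0.95 ± 0.35, adjusted p = 0.0447) passed narrowly, with groups that overlapped, and each passed with only 2 of 6 libraries left out (highest adjusted p 0.198 and 0.153). *Runx3* reached a call without the second C59 library at 6 h (1.30) or without the first at 12 h (1.10).

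**Figure D3:**
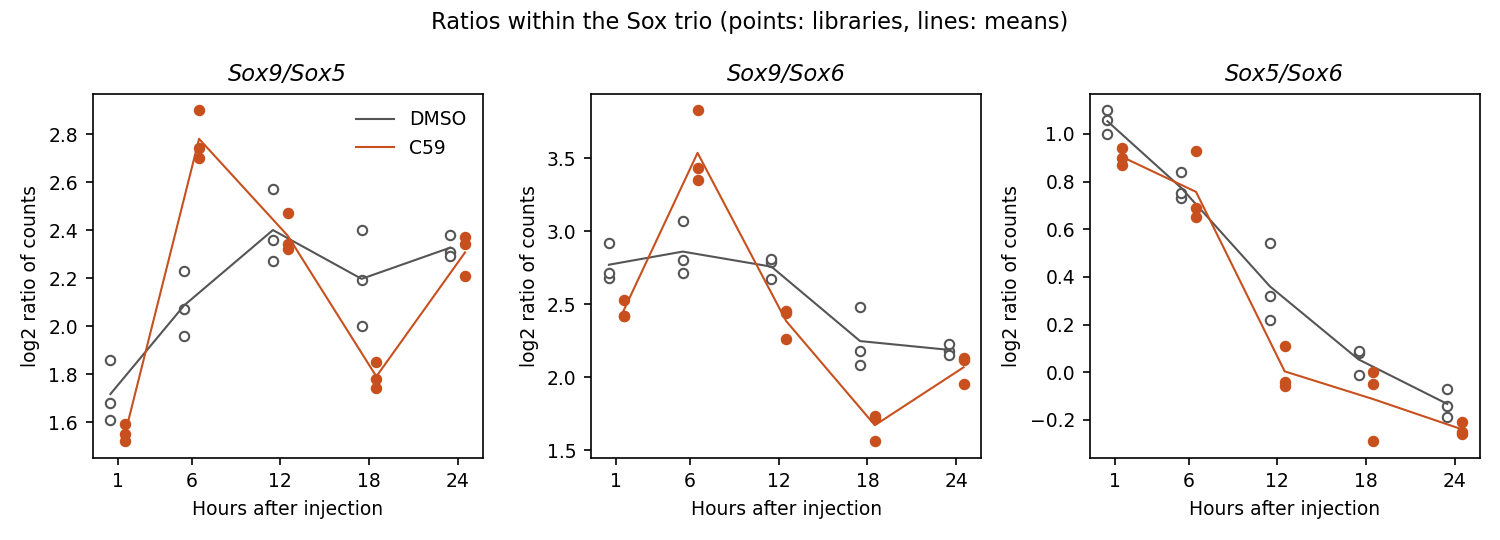
Log2 ratio of the counts of *Sox9* to *Sox5*, *Sox9* to *Sox6* and *Sox5* to *Sox6* in each library against hours after injection, with open grey points for DMSO, filled orange points for C59 and lines through the means (n = 3). The *Sox9* to *Sox5* ratio of C59 libraries is below that of DMSO at 1 h and above it at 6 h (2.78 ± 0.10 against 2.09 ± 0.13, SD). It is close to that of DMSO at 12 h and below it at 18 h. The *Sox9* to *Sox6* ratio is below that of DMSO at 1 h, above it at 6 h and below it from 12 h.

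Ratios within the trio need no scaling between libraries, and were not tested. The log2 ratio of *Sox9* to *Sox5* counts did not overlap between the groups at 1 h or at 6 h. It was 1.72 ± 0.13 (SD, n = 3) in DMSO and 1.55 ± 0.03 in C59 libraries at 1 h. At 6 h it was 2.09 ± 0.13 in DMSO and 2.78 ± 0.10 in C59 libraries. At 12 h it was 2.40 ± 0.15 in DMSO and 2.38 ± 0.08 in C59, and at 18 h the order was turned, with 1.79 ± 0.06 in C59 libraries, all below the DMSO libraries, the highest of which stood at 2.40. At 24 h both means were near each other again (2.32 ± 0.05 and 2.31 ± 0.08). The *Sox9* to *Sox6* ratio was likewise lower in C59 at 1 h (2.46 ± 0.06 against 2.77 ± 0.13 in DMSO) and higher at 6 h (3.54 ± 0.25 against 2.86 ± 0.19). This ratio was lower again at 12 h (2.38 ± 0.11 against 2.76 ± 0.07) and 18 h (1.67 ± 0.10 against 2.25 ± 0.21). At 24 h it was lower by a small amount (2.07 ± 0.10 against 2.19 ± 0.04). The groups did not overlap at any time point. The ratio of *Sox5* to *Sox6* counts fell over time under both treatments, from 1.05 ± 0.05 to -0.14 ± 0.06 in DMSO and from 0.90 ± 0.04 to -0.24 ± 0.03 in C59 between 1 h and 24 h. Counts are not divided by transcript length, so these ratios compare libraries, not the genes' levels.

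At 18 h *Sox9* had 254, 238 and 232 CPM in DMSO and 330, 324 and 235 CPM in C59 libraries. The third C59 library lay within the range of DMSO, and the difference did not pass (0.32 ± 0.13, adjusted p = 0.183), but without that library it did (0.45 ± 0.06, adjusted p = 0.00256), and also when all 30 libraries shared the spread (0.30, adjusted p = 0.0427). That library was also the lowest C59 library of this time point for *Sox5*, *Sox6*, *Runx2* and *Foxc1*.

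*Sox5*, *Sox6*, *Nkx3-2* and *Foxc1* were still higher at 18 h and *Runx3* was lower, so that 5 of the 7 genes passed, where 7.08% of 13413 genes passed. Of these, *Nkx3-2* and *Runx3* were called, against 1.29% of all genes. The same 5 genes did not overlap between the groups, as was the case for 34.2% of all genes.

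*Sox5* had 48.3, 59.5 and 50.6 CPM in DMSO and 98.9, 89.9 and 68.7 CPM in C59 libraries (0.72 ± 0.14, adjusted p = 0.0224). *Sox6* had 45.5, 56.0 and 51.1 CPM against 99.1, 110 and 71.3 CPM (0.89 ± 0.16, adjusted p = 0.0131), and would be called without the third C59 library (1.05). *Foxc1* had 82.1, 74.5 and 70.5 CPM against 129, 130 and 96.8 CPM (0.66 ± 0.13, adjusted p = 0.0187). The adjusted p of these 3 genes depended on single libraries. *Sox5* did not pass without the first or the third DMSO library or the first or second C59 library (0.0535 to 0.11), *Sox6* without the first or the third DMSO library or the second C59 library (0.0508 to 0.074), and *Foxc1* without any 1 DMSO library or the second C59 library (0.0588 to 0.102). With limma on log2(FPKM + 1) without a filter, *Sox6* and *Foxc1* did not pass either (adjusted p = 0.0595 for each). Marker sums of other cell types were also higher in C59 without overlap at 18 h, and their part was not tested. They were those of 5 macrophage markers (29.8 to 33.8 CPM in DMSO, 42.5 to 45.9 CPM in C59) and 6 surface ectoderm markers (255 to 271 and 323 to 379 CPM). The sum of 4 Schwann cell precursor and crest markers was the third (65.4 to 78.9 and 92.5 to 111 CPM). The sum of 4 sensory neuron markers was lower, as given below.

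*Nkx3-2* had 5.79, 6.18 and 3.46 CPM in DMSO and 11.2, 12.7 and 15.4 CPM in C59 libraries at 18 h. Every C59 library was above every DMSO library (1.35 ± 0.22, 2.55-fold, adjusted p = 0.00967), and the gene was called with each library left out in turn (1.15 to 1.52).

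*Runx3* moved the other way. It had 48, 118 and 61 counts in DMSO libraries (2.60, 3.16 and 3.30 CPM) and 23, 21 and 24 counts in C59 libraries (1.08, 1.05 and 1.15 CPM). The C59 libraries lay close together and all below DMSO, at 0.367 of its level (-1.45 ± 0.22, adjusted p = 0.00679). With limma on log2(FPKM + 1) the change was -0.40 and with a pseudocount of 0.1 it was -0.99, both at an adjusted p below 0.05 (0.0209 and 0.028) but short of the fold for a call. The summed CPM of 4 sensory neuron markers was lower, at 22.4 to 26.4 in DMSO and 16.1 to 19.5 in C59 libraries, but its genes did not move together. *Tubb3* averaged 18.4 and 14.2 CPM in DMSO and C59, *Isl1* 4.19 and 1.14 CPM and *Pou4f1* 0.88 and 0.777 CPM. The neurotrophin receptor *Ntrk3* was higher in C59 (0.565 and 1.19 CPM). The lymphocyte marker *Cd3e* was at 0 in both groups. At 24 h, when *Runx3* was no longer lower in C59, the sum was still lower (22.7 to 27.2 in DMSO and 15.5 to 18.0 in C59 libraries). The part of neurons in the *Runx3* result was not tested.

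At 24 h the *Sox* trio no longer differed detectably between the treatments. *Sox9* was at 262 to 275 CPM in DMSO and 220 to 288 CPM in C59 libraries (-0.04 ± 0.08, interval -0.20 to 0.12), *Sox5* changed by -0.02 ± 0.10 (interval -0.22 to 0.18) and *Sox6* by 0.09 ± 0.11 (interval -0.13 to 0.30). The groups overlapped for all 3. *Nkx3-2* (8.80, 9.10 and 9.23 against 14.7, 12.9 and 15.2 CPM) and *Foxc1* (86.2, 76.0 and 84.4 against 102, 117 and 123 CPM) stayed higher without overlap. Their differences were 0.66 ± 0.11 (adjusted p = 0.00366) and 0.48 ± 0.07 (adjusted p = 0.00302), which 6.44% of 13675 genes passed, and neither was called (0.819% of all genes were). Both passed with each library left out. With all 30 libraries sharing the spread the *Nkx3-2* difference was 0.66 at an adjusted p of 0.0586, and with limma on log2(FPKM + 1) without a filter that of *Foxc1* was 0.46 at an adjusted p of 0.0569. Macrophage (35.0 to 38.0 CPM in DMSO, 44.7 to 48.2 CPM in C59) and surface ectoderm sums (299 to 307 and 352 to 387 CPM) were higher in C59 at 24 h too, while those of endothelium (326 to 333 and 272 to 303 CPM), muscle progenitors (189 to 214 and 162 to 186 CPM) and limb mesenchyme (2000 to 2020 and 1780 to 1970 CPM) were lower, all without overlap. Their part was not tested. *Runx3* was no longer lower, with 4.65 to 7.65 CPM in DMSO and 6.46 to 7.22 CPM in C59 libraries (0.20 ± 0.17). *Runx2* was at 42.9 to 44.0 CPM in DMSO and 35.8 to 42.6 CPM in C59 libraries, a gap between the groups that 27.7% of all genes also had, and did not pass (-0.11 ± 0.08, adjusted p = 0.45).

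From 12 h to 24 h the C59 effect shrank in 5 of the 7 genes by the interaction test, which 17.7% of 13798 genes passed in that direction. It fell by 1.23 ± 0.13 for *Sox9*, by 1.23 ± 0.13 for *Sox5*, by 1.48 ± 0.16 for *Sox6*, by 2.51 ± 0.27 for *Nkx3-2* and by 0.76 ± 0.18 for *Foxc1*. In C59 buds between 12 h and 24 h, where 40.5% of 13615 genes passed and 6.35% were called, *Sox9* (-1.23 ± 0.11) and *Sox5* (-1.15 ± 0.11) fell to 0.426 and 0.450 of their 12 h level, and *Sox6* fell by 0.91 ± 0.13. The last would be called without the third C59 library at 12 h (-1.02) or at 24 h (-1.04). *Nkx3-2* (0.32 ± 0.16, adjusted p = 0.13) and *Foxc1* (-0.15 ± 0.14, adjusted p = 0.419) did not pass, though without the third C59 library at 12 h they did (0.56 and -0.31, adjusted p 0.00566 and 0.0409). Both had risen in DMSO buds over the same hours. *Runx3* rose in C59 buds by 2.37 ± 0.20.

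Contrasts for the steps from 12 h to 18 h and from 18 h to 24 h were added after the data had been seen. In the first, which 8.49% of genes passed, the C59 effect fell for *Sox9* (-0.87 ± 0.16, adjusted p = 0.0053), *Nkx3-2* (-1.81 ± 0.37, adjusted p = 0.0078) and *Runx3* (-1.27 ± 0.33, adjusted p = 0.0311), and did not pass for *Sox5* (-0.49 ± 0.16, adjusted p = 0.0853) or *Sox6* (-0.67 ± 0.20, adjusted p = 0.0515, and 0.0346 without the third C59 library at 18 h). In the second, which 6.96% passed, it fell for *Sox5* (-0.74 ± 0.19, adjusted p = 0.0341) and *Sox6* (-0.81 ± 0.21, adjusted p = 0.0352) and rose for *Runx3* (1.64 ± 0.28, adjusted p = 0.00436), and did not pass for *Sox9* (-0.36 ± 0.17, adjusted p = 0.208). Whether *Sox9* and its partners differed from each other in these steps was not tested. With single libraries left out, *Sox5* and *Sox6* in the second step passed in 3 of 12 cases each (highest adjusted p 0.0963 and 0.0998, both without the first DMSO library at 18 h), *Runx3* in the first passed in 4 of 12 (0.0868), and *Sox9* passed in the second without the third C59 library at 18 h (-0.51, adjusted p = 0.0122).

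The level reached in C59 buds at 12 h was also set against the later controls. Against DMSO at 18 h, *Sox9* (1.35 ± 0.08), *Sox5* (1.15 ± 0.09), *Sox6* (1.21 ± 0.10) and *Nkx3-2* (1.12 ± 0.24) were called higher and *Runx3* lower (-1.19 ± 0.23), where 2.59% of 13443 genes were called and 31.8% passed. *Foxc1* passed (0.74 ± 0.15). The *Nkx3-2* value dropped under the fold for a call without the third C59 library (0.87) or without the third DMSO library (0.92). Against DMSO at 24 h, where 4.76% of 13603 genes were called and 38.9% passed, *Sox9* (1.19 ± 0.07) and *Sox5* (1.13 ± 0.06) were still called higher. *Sox6* passed at 1.00 ± 0.08, just under the fold, and reached it without the third C59 library (1.10) or without the first (1.01) or the third (1.03) DMSO library. *Nkx3-2* (0.34 ± 0.16, adjusted p = 0.119) and *Runx2* (-0.03 ± 0.13) did not pass, *Foxc1* passed at 0.63 ± 0.14, and *Runx3* was lower at 0.223 of the DMSO level (-2.17 ± 0.25). In CPM of *Sox9*, *Sox5*, *Sox6*, *Nkx3-2* and *Foxc1*, each C59 library at 12 h exceeded every control library of any time point. The margin was narrow for *Nkx3-2*, at 9.33 to 14.5 CPM beside 8.80 to 9.23 CPM in DMSO buds 12 h older. *Foxc1* stood at 94.9 to 156 CPM beside 76.0 to 86.2 CPM in the same older buds.

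**Figure D4:**
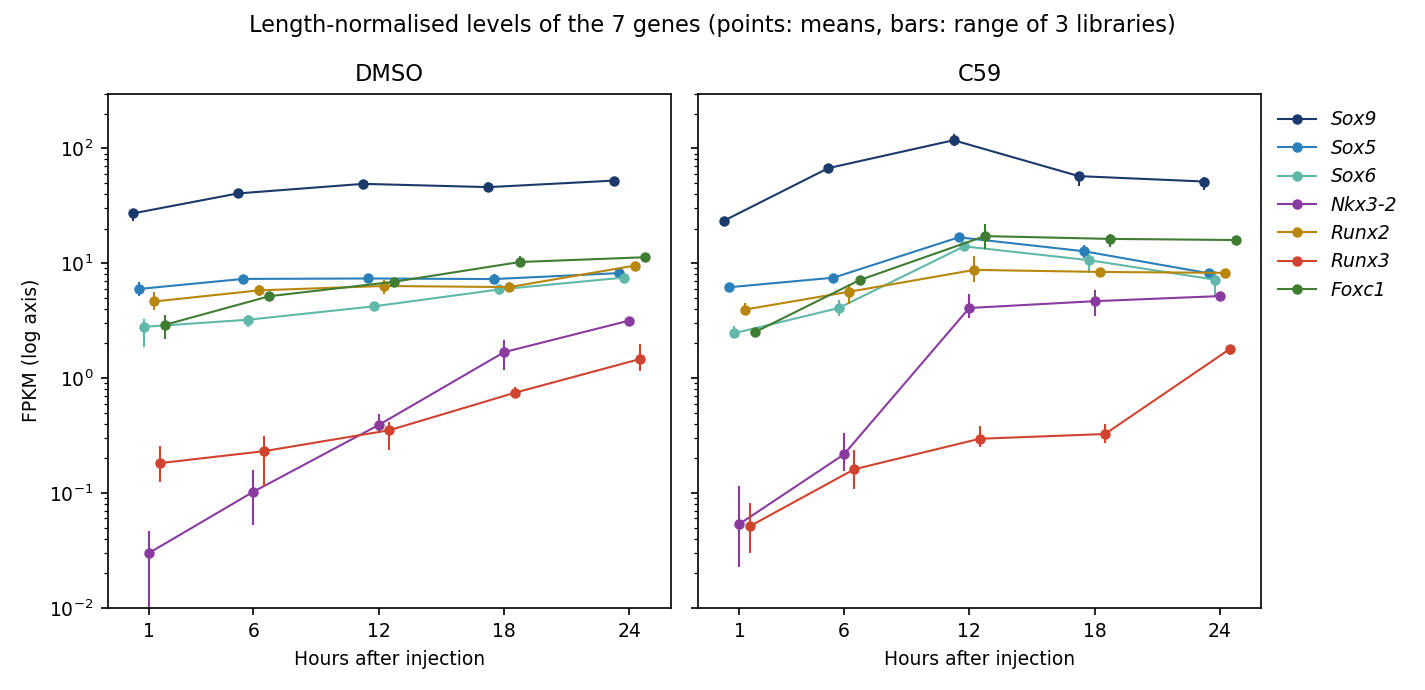
FPKM of the 7 genes on a log axis against hours after injection, DMSO on the left and C59 on the right, with points for group means and bars for the range of 3 libraries; the bar of *Nkx3-2* in DMSO at 1 h runs to the floor of the axis because 1 library was at 0. *Sox9* is the highest gene throughout (27.2 to 52.3 FPKM in DMSO, up to 118 FPKM in C59 at 12 h), and *Nkx3-2* and *Runx3* are the lowest.

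Levels between genes were compared by FPKM, which is divided by transcript length. *Sox9* was the most abundant of the 7 in every group, at 49.1 FPKM (45.5 to 53.2) in DMSO and 118 FPKM (106 to 135) in C59 buds at 12 h. In DMSO at 12 h it was followed by *Sox5* (7.36 FPKM), *Foxc1* (6.90 FPKM), *Runx2* (6.34 FPKM) and *Sox6* (4.21 FPKM), and then by *Nkx3-2* (0.391 FPKM) and *Runx3* (0.351 FPKM). The ranges of *Sox5* and *Foxc1*, of *Foxc1* and *Runx2*, and of *Nkx3-2* and *Runx3* overlapped there. After C59 the order at 12 h was *Sox9*, *Foxc1* (17.2 FPKM), *Sox5* (16.8 FPKM), *Sox6* (14.0 FPKM), *Runx2* (8.75 FPKM), *Nkx3-2* (4.07 FPKM) and *Runx3* (0.296 FPKM), where the range of *Foxc1* overlapped those of *Sox5* and *Sox6*. *Sox6* thus stood above *Runx2* in C59 and below it in DMSO buds at 12 h, without overlap in either group. By 24 h *Runx2* was above *Sox5* in DMSO buds (9.52 against 8.20 FPKM, without overlap).

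Genes of the pathways around the members were followed in 6 lists of 108 genes. Among cartilage matrix genes, which include known targets of the trio, 23 of 26 were tested at 12 h. Of these, 15 passed as higher and none as lower, where 22% of all genes passed as higher and 25.5% as lower. All of the 11 called were higher, against 3.53% of all genes called higher. The median of the tested list genes was 1.18. *Prelp* (2.22 ± 0.597 against 8.83 ± 2.67 CPM, SD, n = 3) and *Otor* (2.50 ± 0.825 against 7.71 ± 1.28 CPM) rose by 1.98 ± 0.26 and 1.62 ± 0.23, and *Matn1*, a matrix protein of differentiating cartilage, by 1.81 ± 0.59 on a C59 mean of only 2.40 ± 2.13 CPM. At 6 h, when *Sox9* was already higher, 2 of 19 tested passed as higher and 2 as lower, at a median of 0.19, against 8.2% and 11.4% of all genes. At 18 h 5 of 24 passed as higher (median 0.34) against 3.46%, and at 24 h 12 of 24 did (median 0.50) against 2.88%, among them *Matn1*, the sole gene called (12.8 ± 1.89 against 26.5 ± 1.17 CPM).

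**Figure D5:**
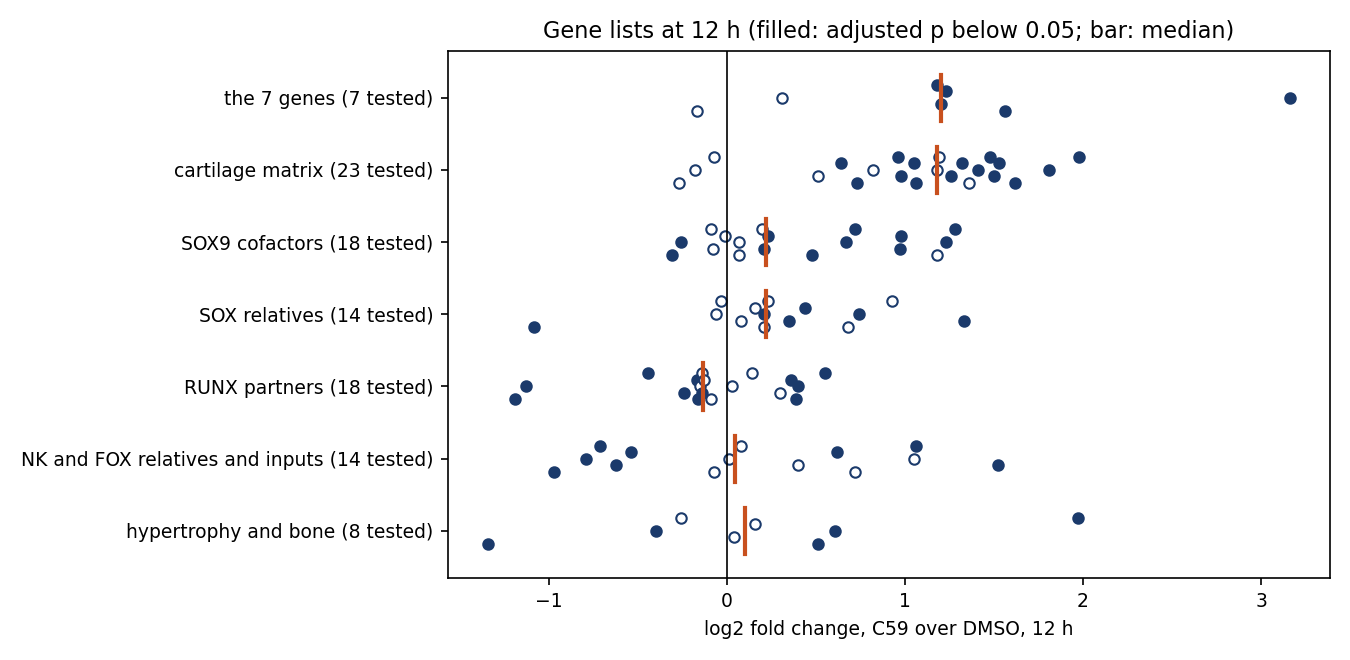
Log2 fold change of C59 over DMSO at 12 h (horizontal axis) for the 7 genes and for the tested genes of 6 lists, with filled points where the adjusted p was below 0.05 and orange bars for medians. The medians of the 7 genes (1.20) and of cartilage matrix genes (1.18) lie furthest from 0, and those of the other lists lie between -0.14 and 0.22.

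SOX9 cofactors, a broad list of SOX9 partners and of genes linked to them such as *Pthlh* and *Hand2*, were mixed at 12 h. Of 18 tested, 9 passed as higher and 2 as lower, with a median of 0.22. For this list and the next, 22% of all genes passed as higher, 25.5% as lower, and 4.95% were called. *Barx2* (5.35 ± 1.02 against 13.0 ± 1.24 CPM, 1.28 ± 0.15) and *Maf* (12.0 ± 2.19 against 28.3 ± 2.53 CPM, 1.23 ± 0.12) were called, and *Maf* reached 26.3 ± 0.595 CPM in DMSO buds at 24 h. Among 14 other SOX genes tested, 5 passed as higher and 1 as lower (median 0.22). The SOX9 paralog *Sox10*, which is also among the crest markers above, passed at 0.74 ± 0.24, and the paralog *Sox8* did not (0.21 ± 0.20). *Sox13*, the closest relative of *Sox5* and *Sox6*, passed at 0.35 ± 0.07.

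Of 18 RUNX partners tested at 12 h, 4 passed as higher and 7 as lower (median -0.14). For this list and those below, 22% of all genes passed as higher, 25.5% as lower, and 4.95% were called. *Twist1* (424 ± 14.1 against 186 ± 8.63 CPM, -1.19 ± 0.05) and *Twist2* (14.4 ± 0.911 against 6.60 ± 1.93 CPM, -1.13 ± 0.19), bHLH factors known to restrain RUNX2, were called lower. *Cbfb*, the shared DNA-binding partner of RUNX proteins, passed as lower by a small amount (-0.24 ± 0.04), and *Runx1* as higher (0.55 ± 0.14). Only 8 of 15 genes of hypertrophy and bone were tested, 3 passed as higher and 2 as lower (median 0.10), with *Spp1* (osteopontin) called higher at 1.97 ± 0.26 and *Alpl* (tissue alkaline phosphatase) lower at -1.34 ± 0.18. Of 14 tested relatives and inputs of NKX3-2 and FOXC1, 3 passed as higher and 5 as lower (median 0.05). *Foxc2*, the paralog of *Foxc1*, was called higher (9.69 ± 2.56 against 20.1 ± 1.74 CPM, 1.06 ± 0.15).

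The genes most like each member over the 10 group means were found among 12542 genes with a mean of at least 1 CPM, by Pearson's r of log2 CPM, given as a description over points that share time and treatment. *Nkx3-2* was followed most closely by *Col11a1* (r = 0.996), *Ccdc80* (0.995) and *Npas3* (0.994), and *Foxc1* by *Nebl* (0.993), *Aplp1* (0.992) and *Col2a1* (0.992), where *Col11a1* and *Col2a1* encode fibrillar collagens of cartilage. For *Sox6* these were *Grina*, *Rab32* and *Idua* (0.985 to 0.988), for *Sox9* *Ip6k1*, *Rasl11b* and *Cdh3* (0.970 to 0.982) and for *Sox5* *Ak1*, *Plin2* and *Fgd4* (0.965 to 0.982). *Runx2* was closest to *Lhfpl2*, *Tmco3* and *Tsc22d4* (0.974 to 0.980) and *Runx3* to *Pitx1*, *Tpm1* and *Gsdmd* (0.975 to 0.978). Among the members, r was highest for *Nkx3-2* and *Foxc1* (0.97) and lowest for *Sox5* and *Runx3* (0.09), and within the trio it ran from 0.78 to 0.86.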

How the data were processed

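Reads had been cleaned by the authors with cutadapt 1.16 and aligned to mm10 by STAR 2.7.0e with an annotation of their own. The deposited counts are raw and per gene, and their strand setting is not given in the sources used here. The deposited FPKM values came from Cufflinks 2.2.1, which ignored strand and corrected for multiply mapped reads and sequence bias. Groups were taken from the sample labels.

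Counts were tested with edgeR 4.0.16 in R 4.3.3 (TMM, filterByExpr with a minimum count of 10 and total of 15, quasi-likelihood F test, two-sided, Benjamini-Hochberg over all protein-coding autosomal genes tested), without covariates, each contrast on its own libraries and interactions on 12. SE were derived from the F statistic. Alternatives used DESeq2 1.42.0, other scaling, no filter, limma 3.58.1 on log2(FPKM + 1) or with 0.1, a replicate block and leaving out each library. The fit was tested on simulated data. The members and gene lists were chosen with earlier results of these data known. Named list genes are the 3 called genes with the largest change at 12 h and a mean of at least 1 CPM per list, plus paralogs of the members (some listed genes are not reported here), and *Matn1* is given also at 24 h. No 2 replicates agreed within sampling noise (chi-square per degree of freedom 3.31 to 42.2 over 30 pairs). The p-values measure the spread between embryos, and counts carry no molecular identifiers. The injected unit was the mother. The paper states that replicates of each condition and time point included at least 3 litters. The sample labels do not give the litter of a library, so spread between litters was not separated from spread between embryos.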

Additional observations from a re-analysis of the deposited data

Results flagged for a closer look

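The C59 effect differed between time points by the edgeR test of the interaction in 16 cases among the 7 genes. From 6 h to 12 h it grew by 0.47 for *Sox9*, 1.18 for *Sox5*, 1.51 for *Sox6*, 2.33 for *Nkx3-2* and 0.78 for *Foxc1* on the log2 scale. From 12 h to 24 h it changed by -1.23 for *Sox9*, -1.23 for *Sox5*, -1.48 for *Sox6*, -2.51 for *Nkx3-2* and -0.76 for *Foxc1*. Of all genes, 6.59% passed as higher in the first interval and 17.7% as lower in the second.

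In the 2 steps added after the data had been seen, it changed from 12 h to 18 h by -0.87 for *Sox9*, -1.81 for *Nkx3-2* and -1.27 for *Runx3*, and from 18 h to 24 h by -0.74 for *Sox5*, -0.81 for *Sox6* and 1.64 for *Runx3*. Of all genes, 8.49% passed in the first of these steps and 6.96% in the second. By these estimates *Runx3* is the gene whose C59 effect turned lower and then back within the last 12 h. Its change from 12 h to 18 h passed in only 4 of 12 cases with single libraries left out. With limma on FPKM that change did not pass (adjusted p 0.063 to 0.156). Groups of 3 libraries were too small for a test of single outlying libraries.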

How the results depend on the processing

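No value of the 7 genes turned its direction under any alternative while past the threshold, and 243 of 276 counts of members called or passing stayed within 1.5 times. Without a minimum fold the counts were 2 at 6 h, 5 at 18 h and 2 at 24 h, 7 for DMSO 24 h against 1 h, 3 for DMSO 12 h against 6 h, 5 for DMSO 24 h against 12 h, 7 for C59 12 h against 6 h and 5 for C59 12 h against DMSO 24 h. With limma on FPKM, whose pseudocount lowers the change of low genes, 1 member was called at 18 h (pseudocounts of 1 and 0.1, and 1 without a filter), 1 in DMSO 24 h against 12 h, 3 in C59 12 h against DMSO 18 h and 1 in C59 12 h against DMSO 24 h (pseudocount of 1, with and without a filter). For DMSO 12 h against 6 h, 1 member (*Nkx3-2*) was called with upper-quartile factors, with all 30 libraries sharing the spread and with the replicate block. For the step from 12 h to 18 h, 5 members passed with upper-quartile factors, 6 with the shared spread and 5 with the replicate block, and for that from 18 h to 24 h 1 passed with the replicate block and 1 to 4 with a library left out. The cause of these shifts was not tested. Without a minimum fold, the shares of all genes are those given above as passing. For the other settings such shares were not computed, so those counts cannot be set against other genes. Same-numbered libraries deviated together weakly or not at all (r from -0.256 to 0.235, and in 0 of 12 comparisons were all pairs above 0.1). For C59 against DMSO at 12 h every r was above 0 (0.0426, 0.107 and 0.154). The main fit did not use the replicate number, and whether same-numbered libraries shared a batch was not tested. The block also moved single genes across the threshold: *Runx2* at 12 h (0.30, adjusted p = 0.0222), *Nkx3-2* in DMSO 12 h against 6 h (0.0302), and *Sox6* and *Foxc1* from 12 h to 18 h (0.0179 and 0.0373) passed, and *Runx2* and *Runx3* in C59 12 h against 6 h (0.0562 and 0.0558) and *Sox5* and *Sox6* from 18 h to 24 h (0.0601 and 0.0547) did not. Depth limited *Nkx3-2* at 1 h and 6 h and *Runx3* up to 12 h, where each library held at most 33 counts.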
